A study of Mus musculus with 54 samples.

Results

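Wild-type mouse macrophages exposed for 6 h to R837 were compared with wild-type macrophages exposed for 6 h to Pam3, by RNA sequencing of 3 libraries each. These 6 libraries were taken by their titles from the 54 of the series, and every gene was included. The cells were bone marrow-derived macrophages (BMDMs), grown from marrow of C57BL/6N mice with the growth factor M-CSF and replated before use. The labels name no engineered allele in either group. The other 48 libraries are wild-type cells untreated or at 2, 4 or 8 h of either ligand, and the same conditions in N4bp1 knockout (KO) cells. Ligand doses were stated in none of the sources read, so the comparison is between the exposures as they were made. Library totals were 30.99, 34.89 and 37.2 M counts for R837 and 33.66, 25.12 and 30.53 M counts for Pam3.

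The labels describe the 3 replicates as cultures of individual mice. Y-linked transcripts stood at 162.4, 58.3 and 0.0269 CPM (counts per M counts of the library) in R837 replicates 1, 2 and 3, and at 0.0297, 187 and 68.1 CPM in Pam3 replicates 1, 2 and 3. Each group thus held a high, a middle and a near-zero library, under different replicate numbers. Xist, which is made from an inactive X chromosome, stood at 94.6 and 120.4 CPM in the libraries with the middle level, against 17 and 21.7 CPM in those with the highest, so the middle libraries held both kinds of transcript. Nnt, a mitochondrial gene that is disrupted in C57BL/6J and intact in C57BL/6N mice, stood at 0 to 0.736 CPM over the 54 libraries, and whether this goes against the strain label was not tested. Here n therefore counts libraries. Leaving out the 2 middle libraries, R837 replicate 2 and Pam3 replicate 3, gave 2455 called genes in place of the 3396 below, 1462 higher and 993 lower with R837.

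Pam3 (Pam3CSK4) is a synthetic bacterial-type lipopeptide that is bound at the cell surface by TLR2 paired with TLR1. R837 (imiquimod) is a synthetic agonist of TLR7, an endosomal receptor whose natural ligand is single-stranded RNA. Both receptors signal through the adaptor MyD88 to the IkB kinases, the transcription factor NF-kB and the MAP kinases, which turn on cytokine and chemokine genes. Endosomal receptors can also turn on type I interferon. Interferon acts back on the cell through its receptor and a factor complex that includes STAT2 and IRF9, which binds a DNA element known as the interferon-stimulated response element (ISRE).

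At 6 h the exposures differed in 3396 of 14970 genes tested, of which 1829 were higher with R837 (12.2% of genes tested) and 1567 lower (10.5%), 22.7% in all. A gene is called here where its p, from the quasi-likelihood test of edgeR and adjusted over all genes tested by the method of Benjamini and Hochberg, is below 0.05. Differences are log2 values, R837 minus Pam3, with their standard error (SE), and levels are from here on CPM scaled by the trimmed mean of M-values (TMM). The upper tail was the longer. Past 2-fold, 623 called genes were higher and 221 lower. Past 8-fold, 70 were higher and 13 lower, and the 13 were all scarce transcripts, none of which entered the ranking below. The median over all genes was -0.022, over the genes called higher 0.70 and over those called lower -0.56. For 5466 genes (36.5%) the 95% interval of the difference lay within 1.5-fold in either direction. Of the called genes, 3350 had no overlap between the libraries of the exposures. Such separation was common, called or not. Over all genes tested, the R837 libraries all lay above in 3069 (20.5%) and the Pam3 libraries in 3203 (21.4%). Counts of list members below are to be read beside the shares of 12.2% and 10.5%, and no list was tested. These are bulk libraries, so fewer cells of a kind and less RNA per cell cannot be told apart.

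**Figure D1:**
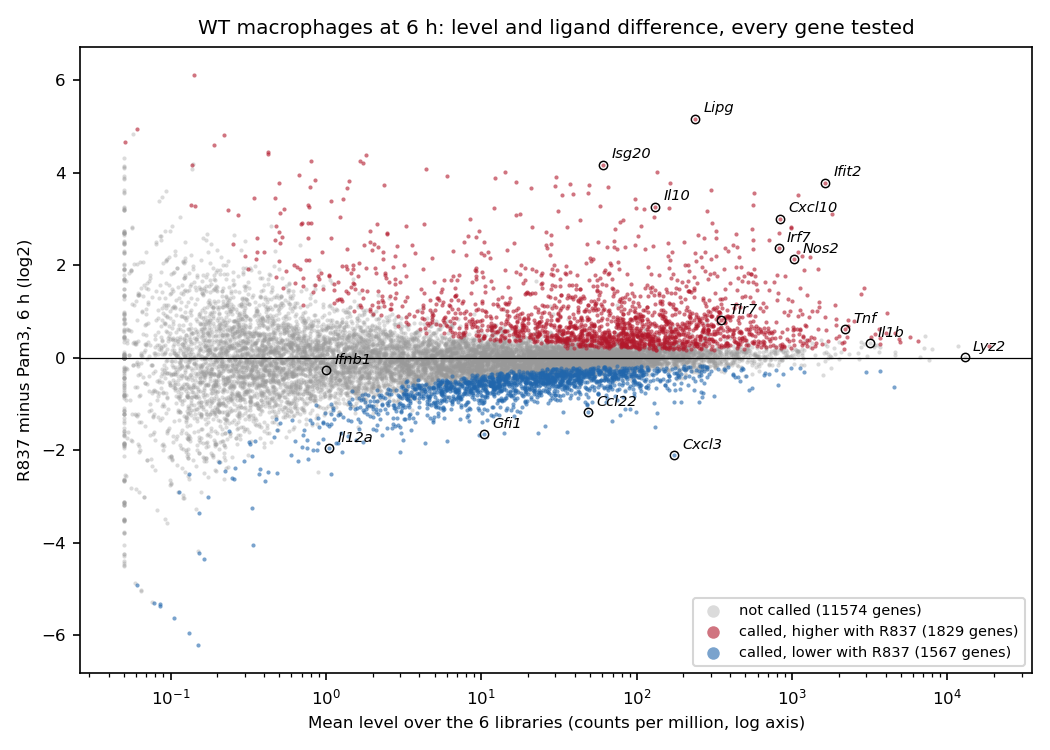
Mean level over the 6 libraries (CPM, log axis) against the log2 difference, R837 minus Pam3, for the 14970 genes tested. Red points are the 1829 genes called higher with R837 and blue points the 1567 called lower, levels below 0.05 CPM are drawn at that value, and the ringed genes include Lipg at 5.17 and Cxcl3 at -2.10.

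Genes with a mean of at least 5 CPM in the higher group and no overlap between exposures were ranked by their difference, and the 15 largest in each direction are described first. The top of the higher ones was Lipg, which encodes endothelial lipase, a secreted phospholipase that acts on lipoproteins (ENSMUSG00000053846, GRCm38 chromosome 18, 74939322 to 74961263, minus strand). Its level was 568, 393 and 420.0 CPM in the R837 libraries and 10.6, 14.7 and 13.2 CPM in the Pam3 libraries, against 0.128 ± 0.0885 CPM (SD, n = 3) in untreated cells. All 3 R837 libraries lay far above all 3 Pam3 libraries, with a difference of 5.17 ± 0.47 (edgeR adjusted p = 2.85e-11). Many of the other 14 are known as interferon-induced. Isg20, an exonuclease that degrades viral RNA (chromosome 7, 78913424 to 78920396, plus strand), stood at 126, 96.4 and 123 CPM against 8.08, 5.15 and 5.79 CPM, a difference of 4.17 ± 0.34 (edgeR adjusted p = 1.19e-12). Ifit2, whose product binds RNA and restrains viral translation (chromosome 19, 34550694 to 34576419, plus strand), was the most abundant of the 15. Its levels were 3046, 2701 and 3345 CPM with R837 and 225, 216 and 217 CPM with Pam3, a difference of 3.79 ± 0.39 (edgeR adjusted p = 6.75e-10). The Pam3 libraries were close to each other and all stood above the untreated mean of 48 CPM.

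Further members of the leading 15 came from clustered gene families. Ifit1bl1, of the IFIT family, stood at 313, 197 and 251 CPM against 14.1, 17.8 and 15.3 CPM (4.02 ± 0.36, edgeR adjusted p = 2.18e-11). Genes of the Ifi200 cluster on chromosome 1, which encode DNA-binding proteins of the HIN domain family, filled 4 places. Ifi208 differed by 3.81 ± 1.13, a call that was lost without Pam3 replicate 3 (adjusted p = 0.0557) and under 4 further alternatives, Ifi213 by 3.75 ± 0.41, Ifi206 by 3.70 ± 0.43 and Ifi209 by 3.63 ± 0.32. Ifi209 was the most abundant of these, at 557, 488 and 621 CPM with R837 and 52.1, 38.8 and 44 CPM with Pam3. Slfn4, a Schlafen family gene, differed by 3.91 ± 0.36, Trim30b by 3.89 ± 0.52 and Phf11a by 4.01 ± 0.49. Iigp1, an immunity-related GTPase that attacks the vacuoles of intracellular pathogens, differed by 3.77 ± 0.68. These families hold related copies, and no source used here says how reads that fit several copies were counted, so the split within a family is uncertain.

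Another 3 genes of the leading 15 belong to none of those families. Tnfsf10, which encodes the death ligand TRAIL, stood at 85, 80.8 and 111 CPM with R837 and 5.85, 7.53 and 7.42 CPM with Pam3 (3.73 ± 0.42, edgeR adjusted p = 5.31e-09). Pde7b encodes a phosphodiesterase that degrades cyclic AMP. Its level was 39.4, 33.5 and 43.5 CPM with R837, 4.07, 2.38 and 2.63 CPM with Pam3 and 14.9 ± 2.39 CPM (SD, n = 3) in untreated cells, so that the exposures lay on opposite sides of the untreated level. The ligand difference was 3.67 ± 0.46 (edgeR adjusted p = 6.1e-08). Lhx2, a homeodomain transcription factor, was the least abundant of the 15, at 11.4, 8.95 and 13.4 CPM against 0.742, 0.741 and 0.707 CPM (3.94 ± 0.52, edgeR adjusted p = 7.7e-08).

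In the opposite direction Cxcl3, a chemokine that draws neutrophils through the receptor CXCR2, headed the ranking (ENSMUSG00000029379, chromosome 5, 90786103 to 90789600, plus strand). It stood at 43, 73.8 and 80 CPM with R837 and 314, 244 and 287 CPM with Pam3, while untreated cells had 0.0385 ± 0.0666 CPM (SD, n = 3). All 3 Pam3 libraries lay above all 3 R837 libraries, and both exposures far above untreated cells. The difference was -2.10 ± 0.18 (edgeR adjusted p = 4.04e-12). Gfi1, a zinc-finger repressor of myeloid genes (chromosome 5, 107716657 to 107726036, minus strand), stood at 5.6, 4.79 and 4.66 CPM with R837 and 15.4, 17.5 and 14.4 CPM with Pam3 (-1.65 ± 0.34, edgeR adjusted p = 0.000205). Col27a1, a fibrillar collagen chain, and Lad1, a protein of basement-membrane anchoring filaments, were like Cxcl3 and Gfi1 nearly absent before stimulation. Col27a1 stood at 2.14, 1.96 and 1.52 CPM against 6.89, 6.51 and 6.84 CPM and at 0.0865 CPM in untreated cells. Lad1 stood at 9.37, 11.6 and 12.8 CPM against 37.7, 34.5 and 32.1 CPM and at 0.19 CPM in untreated cells.

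Other members of the lower 15 were already expressed before stimulation. Arrb1, encoding beta-arrestin 1, which uncouples activated receptors, had an untreated mean of 145 CPM, with 17.8, 21 and 13.9 CPM after R837 and 40.9, 67.4 and 52.8 CPM after Pam3 (-1.61 ± 0.22, edgeR adjusted p = 2.16e-07). Both ligands were below untreated cells and R837 the lower. Sesn1, a sestrin that restrains the kinase mTORC1, showed the same order, at 15, 13.7 and 12.2 CPM and 33.7, 45.9 and 34.2 CPM against 294 CPM in untreated cells. Scd2, a fatty acid desaturase, stood at 79, 73.1 and 55.5 CPM with R837, 158, 229.7 and 196 CPM with Pam3 and 156 ± 26.9 CPM (SD, n = 3) in untreated cells. Here the Pam3 libraries lay above the untreated mean and R837 below it. Tmem120b was at 6.8 CPM in untreated cells, 5.41, 7.85 and 7.06 CPM with R837 and 20.9, 21.1 and 21.3 CPM with Pam3 (-1.64 ± 0.13, edgeR adjusted p = 9.5e-14), so that R837 lay around the untreated mean. The remaining 7 genes, Slc35g1, Zfp316, Kctd7, Mettl13, Dtx4, Klhl21 and Net1, differed by -1.68 to -1.35. Zfp316 lost its call without R837 replicate 3 (edgeR adjusted p = 0.144) or Pam3 replicate 2 (0.0585). Dtx4, a ubiquitin ligase, was the most abundant of those 7, at 44.4, 38.7 and 32.9 CPM against 96.1, 103 and 103 CPM.

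The promoters of these genes are shown because the factors downstream of either receptor bind known sequence elements. The windows run from 250 bases before to 50 bases after a RefSeq transcript start on GRCm38.p6, and capitals mark a match. For higher genes the match is to the ISRE core (GAAA, any 2 bases, GAAA), and for lower genes to the NF-kB consensus motif of 10 letters, on either strand. The first 3 lines are the 3 genes highest in rank among the 15 higher whose window held an ISRE match, and the last 3 the same for the lower 15 and NF-kB. The windows are chr19:34601919-34602218 on the minus strand for Ifit1bl1, chr14:59297473-59297772 on the minus strand for Phf11a and chr1:173673415-173673714 on the plus strand for Ifi208. Those of the lower genes are chr5:90785851-90786150 on the plus strand for Cxcl3, chr4:63215162-63215461 on the plus strand for Col27a1 and chr5:107725756-107726055 on the minus strand for Gfi1.
Ifit1bl1: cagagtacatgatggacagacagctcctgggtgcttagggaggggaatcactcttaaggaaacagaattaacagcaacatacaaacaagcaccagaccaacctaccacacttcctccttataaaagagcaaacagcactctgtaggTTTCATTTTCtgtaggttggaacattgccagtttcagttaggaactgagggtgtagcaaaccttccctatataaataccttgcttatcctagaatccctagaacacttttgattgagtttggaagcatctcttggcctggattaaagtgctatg
Phf11a: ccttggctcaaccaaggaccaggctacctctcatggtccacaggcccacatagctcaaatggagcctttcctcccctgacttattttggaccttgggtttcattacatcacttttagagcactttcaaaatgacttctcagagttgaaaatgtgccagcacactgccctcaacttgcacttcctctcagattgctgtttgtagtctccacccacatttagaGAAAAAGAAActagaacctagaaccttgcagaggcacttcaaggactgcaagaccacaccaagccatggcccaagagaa
Ifi208: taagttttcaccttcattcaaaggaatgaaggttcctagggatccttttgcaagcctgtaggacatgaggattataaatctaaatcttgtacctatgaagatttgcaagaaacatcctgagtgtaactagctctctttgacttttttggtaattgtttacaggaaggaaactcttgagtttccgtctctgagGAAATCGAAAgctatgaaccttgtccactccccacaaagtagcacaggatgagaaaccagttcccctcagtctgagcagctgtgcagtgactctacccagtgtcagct
Cxcl3: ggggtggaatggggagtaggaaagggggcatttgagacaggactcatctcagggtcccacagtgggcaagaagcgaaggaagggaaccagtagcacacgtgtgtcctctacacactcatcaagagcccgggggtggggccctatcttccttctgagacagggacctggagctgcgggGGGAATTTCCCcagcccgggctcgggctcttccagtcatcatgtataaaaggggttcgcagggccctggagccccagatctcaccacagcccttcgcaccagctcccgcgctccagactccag
Col27a1: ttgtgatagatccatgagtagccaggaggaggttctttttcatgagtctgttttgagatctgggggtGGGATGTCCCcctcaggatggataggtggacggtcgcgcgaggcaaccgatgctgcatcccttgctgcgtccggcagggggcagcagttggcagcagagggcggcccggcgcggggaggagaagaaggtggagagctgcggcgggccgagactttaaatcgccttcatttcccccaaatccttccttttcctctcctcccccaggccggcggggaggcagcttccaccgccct
Gfi1: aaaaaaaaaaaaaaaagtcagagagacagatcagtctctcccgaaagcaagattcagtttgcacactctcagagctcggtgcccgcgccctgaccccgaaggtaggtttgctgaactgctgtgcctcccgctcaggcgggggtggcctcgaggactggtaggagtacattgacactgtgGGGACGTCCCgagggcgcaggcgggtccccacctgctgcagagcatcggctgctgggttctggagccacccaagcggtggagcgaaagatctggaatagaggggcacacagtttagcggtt

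Matches began 104, 29 and 58 bases before the start in Ifit1bl1, Phf11a and Ifi208. In Col27a1 the match began 183 bases before the start. In Cxcl3 a pair of overlapping NF-kB matches began 73 and 72 bases before the start, and in Gfi1 a match began 71 bases before it. Among the 15 higher genes 13 had at least 1 promoter in the table, with 18 promoters in all, of which 6 held an ISRE match (33.3%) and 4 an NF-kB match (22.2%). The ISRE matches lay in Ifit1bl1, Phf11a, Ifi208, Ifi213 and Ifi206, and the Ifi genes among these belong to the same cluster. Isg20, Lhx2, Ifit2 and Ifi209 held an NF-kB match and no ISRE match. The 14 promoters of 11 of the lower 15 held no ISRE match, and 5 held an NF-kB match (35.7%). Over all 32851 promoters of the table the shares were 3.44% for the ISRE and 8.46% for NF-kB. Promoters of genes tested held them in 3.36% and 10.4%. For genes called higher the shares were 8.48% of 1828 promoters for the ISRE and 11.8% for NF-kB, and for genes called lower 1.76% of 1531 promoters and 10.2%. A match is a stretch of letters and does not show that a factor was bound.

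**Figure D2:**
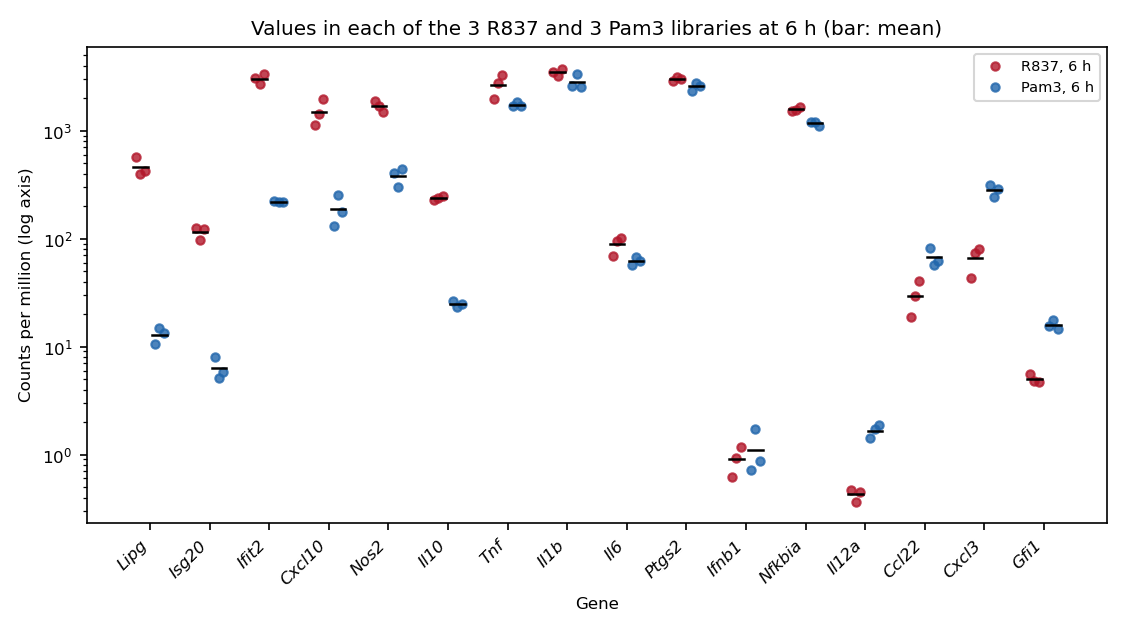
Level in each library (CPM, log axis) for 16 genes, with R837 in red, Pam3 in blue and a bar at the mean of 3 libraries. Lipg, Isg20, Ifit2, Cxcl10, Nos2 and Il10 have no overlap between exposures, the values of Il1b and Ifnb1 overlap, and Cxcl3 and Gfi1 lie lower with R837.

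Many genes of interferon signalling were higher with R837, while the interferon beta gene itself was not called. Ifnb1, which encodes interferon beta, stood at 0.622, 0.932 and 1.17 CPM with R837 and 0.713, 1.72 and 0.868 CPM with Pam3 (edgeR adjusted p = 0.845). The libraries overlapped, and the untreated libraries held no count. At 2 and 4 h its means with R837 were 0.504 and 1.51 CPM, against 0.0854 and 0.432 CPM with Pam3. These means are low and are given without a test. Another interferon gene, Ifna4, did not pass the filter on low counts. Of 16 tested members of the interferon list 9 were higher and none lower, with a median difference of 0.49. Irf7, the factor that amplifies interferon transcription, stood at 1378, 1226 and 1512 CPM against 366, 194 and 239.9 CPM (2.36 ± 0.31, edgeR adjusted p = 1.26e-07). Its Pam3 libraries lay around the untreated mean of 206 CPM. Stat2, a factor of the complex named above, was at 792, 789 and 797 CPM against 260.1, 239 and 268 CPM (1.63 ± 0.18, edgeR adjusted p = 2.9e-09), and Usp18, which switches off signalling at the interferon receptor, at 835, 886 and 1086 CPM against 207, 171 and 171 CPM (2.35 ± 0.29). The receptor chain Ifnar1 differed by 0.071 ± 0.095 and another factor of the complex, Irf9, by 0.17 ± 0.084, and neither was called. Both were named after their values were seen.

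Antiviral interferon-stimulated genes were higher almost throughout. Of 39 tested, 37 were higher with R837 and none lower, with a median difference of 1.78. Isg15, a ubiquitin-like modifier, stood at 1437, 1323 and 1521 CPM against 236, 213 and 209 CPM and at 18 CPM in untreated cells (2.70 ± 0.22, edgeR adjusted p = 1.4e-12). Pnpt1, an RNA-degrading enzyme of mitochondria, differed by 1.81 ± 0.16 and Ifi35 by 1.89 ± 0.16. Members at the upper end beside the IFIT genes included Cmpk2 at 3.52 ± 0.35, Mx1 at 3.31 ± 0.35 and Rsad2 at 3.10 ± 0.39, which were named after their values were seen. The members without a call were Apol9a, at no more than 0.486 CPM in any of the 6 libraries, and Ifi27l2a, which was abundant and overlapped.

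The list of sensors of foreign nucleic acid, which also holds genes that are not sensors, followed the same direction. Of its 14 tested members 12 were higher and none lower, with a median of 2.27. Samhd1, which depletes nucleotides in the cell, stood at 1956, 1716 and 1778 CPM with R837 and 352, 394 and 378 CPM with Pam3, the latter just above the untreated 349.5 CPM (2.28 ± 0.16, edgeR adjusted p = 1.63e-14). Ifi204, a DNA-binding protein, stood at 1775, 1586 and 1801 CPM against 260.5, 241 and 239 CPM (2.80 ± 0.20, edgeR adjusted p = 5.31e-14). Its neighbour Mndal differed by 2.91 ± 0.22, and Dhx58, a regulator of the RNA sensor RIG-I, by 2.27 ± 0.17. The DNA sensor Cgas and the adaptor Mavs were not called, at 0.47 ± 0.19 and -0.24 ± 0.13.

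All 17 tested guanylate-binding proteins and immunity-related GTPases, which act on pathogen vacuoles, were higher with R837, with a median of 2.51. In none of the 17 did libraries of the exposures overlap. Over all genes tested, all 3 R837 libraries lay above all 3 Pam3 libraries in 20.5%. Gbp3 stood at 994, 884 and 975 CPM against 175, 152 and 163 CPM (2.54 ± 0.25, edgeR adjusted p = 1.09e-10), Igtp at 749, 705 and 814 CPM against 123, 119 and 115 CPM (2.67 ± 0.27) and Ifi47 at 1290, 1083 and 1282 CPM against 229.5, 193 and 207 CPM (2.54 ± 0.27). Gbp9 stood at 142, 109.7 and 128 CPM against 19.3, 18 and 18.2 CPM (2.77 ± 0.25). With Pam3 it was close to its untreated mean of 19.9 CPM, while the Pam3 mean of Gbp3 stood above 13.4 CPM.

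**Figure D3:**
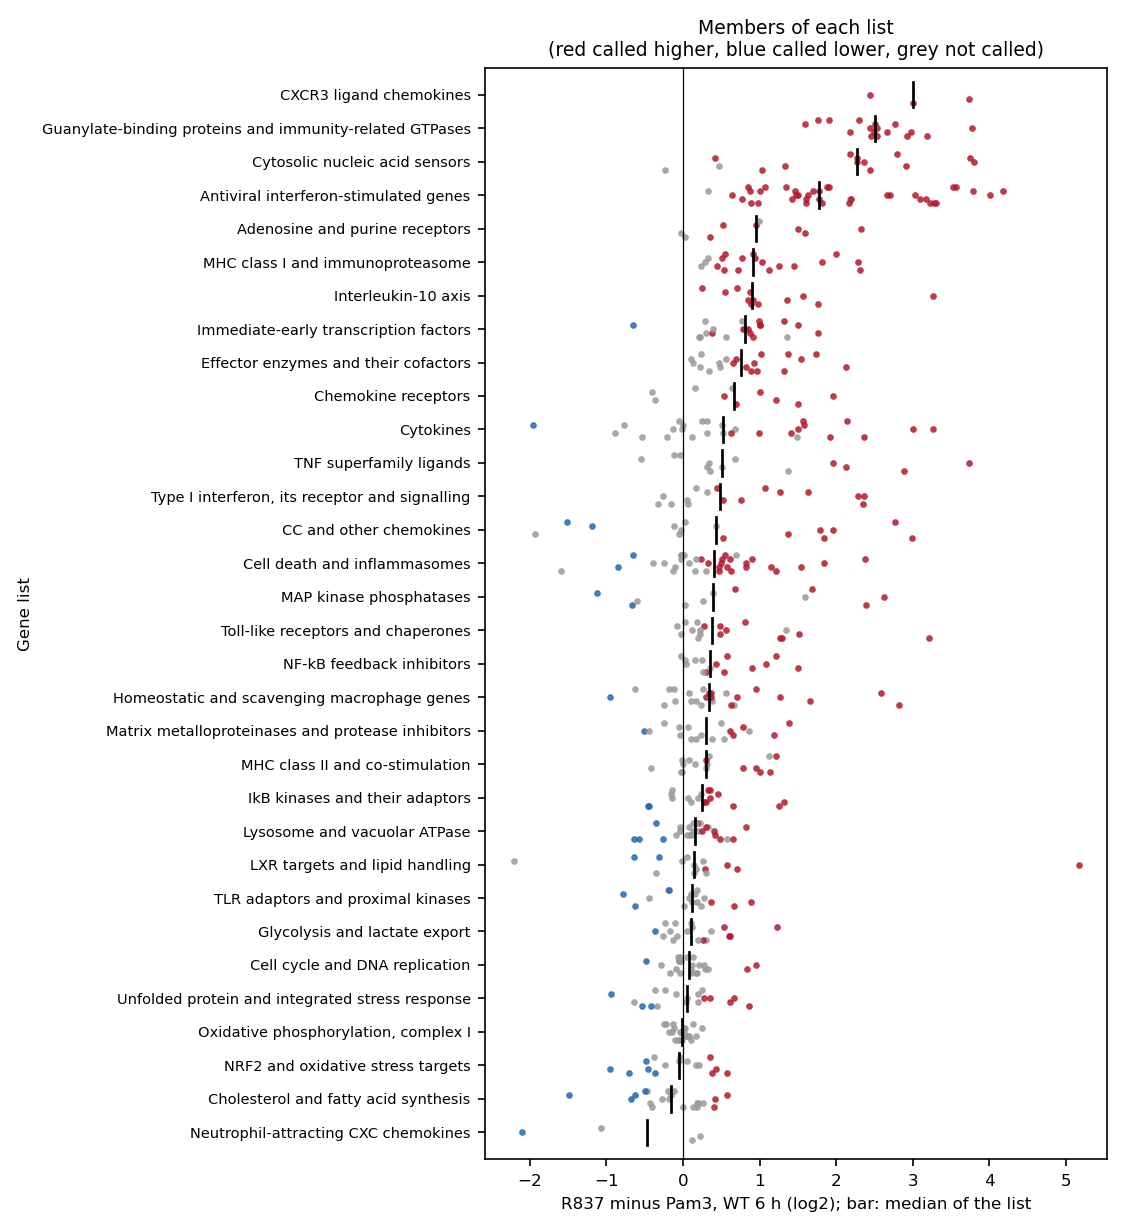
Log2 differences, R837 minus Pam3, of the tested members of each of the 32 gene lists other than cell markers, ordered by the median (bar), with red for called higher, blue for called lower and grey for no call. The CXCR3 ligands, GTPases and nucleic acid sensors lie farthest to the right, with medians of 3.00, 2.51 and 2.27, and complex I lies around 0.

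Most called chemokine genes were higher with R837, and few were lower. The 3 ligands of CXCR3, a receptor of activated T and NK cells, were all higher with R837. Cxcl10 stood at 1118, 1411 and 1963 CPM with R837 and 129, 255 and 176 CPM with Pam3 (3.00 ± 0.44, edgeR adjusted p = 1.5e-06), with 3.05 ± 2.07 CPM (SD, n = 3) in untreated cells. Cxcl9 stood at 55.5, 35.4 and 42 CPM against 5.61, 6.91 and 12 CPM (2.44 ± 0.62, edgeR adjusted p = 0.00289). No library of one exposure reached the range of the other in either gene, which was a condition for naming genes from a list. Of the 4 chemokines that draw neutrophils none was higher and Cxcl3 alone was lower, or 2 genes without R837 replicate 2. Cxcl1 and Cxcl2 overlapped between exposures, at 959.9, 1440 and 1793 CPM against 1232, 1227 and 1120 CPM for Cxcl2 (edgeR adjusted p = 0.534), and both were named after their values were seen.

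Of 15 CC and other chemokines 7 were higher (46.7%) and 2 lower (13.3%), beside 12.2% and 10.5% over all genes tested. The higher ones draw monocytes, T cells or both. Ccl12 stood at 125, 124 and 185 CPM against 14.5, 24.2 and 16.3 CPM (2.99 ± 0.24, edgeR adjusted p = 9.2e-13), Ccl7 at 885, 942 and 1077 CPM against 108, 163 and 154 CPM (2.77 ± 0.25) and Ccl2 at 707, 800.0 and 748 CPM against 131, 233 and 216 CPM (1.96 ± 0.24). These 3 genes are ligands of CCR2. Ccl4, a chemokine of inflamed tissue, was far more abundant, at 3580, 3773 and 4626 CPM against 1659, 1543 and 1432 CPM (1.37 ± 0.14, edgeR adjusted p = 2e-10), and Ccl5, which draws T cells, stood at 1438, 1070 and 1205 CPM against 354, 377 and 339.8 CPM (1.79 ± 0.23). The lower genes were Ccl22, a ligand of CCR4, at 19, 29.1 and 40.8 CPM against 82.2, 57.2 and 62.6 CPM (-1.18 ± 0.33, edgeR adjusted p = 0.00649), and Ccl24, a ligand of CCR3, at -1.51 ± 0.55. Neither lower gene was called without R837 replicate 1 (edgeR adjusted p = 0.0653 and 0.127), and Ccl24 was not without R837 replicate 2 (0.146) or Pam3 replicate 2 (0.234). Ccl22 and Ccl24 were named after their values were seen.

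Among chemokine receptors 6 of 10 tested were higher and none lower, or 1 lower without Pam3 replicate 1. Ccr2, the receptor of monocytes, stood at 71.1, 87.4 and 101 CPM with R837 and 40.8, 32.6 and 38.5 CPM with Pam3, both below the untreated 156 CPM (1.22 ± 0.21, edgeR adjusted p = 1.66e-05). Ccrl2, a receptor that binds chemerin without signalling, differed by 1.5 ± 0.25 and Ccr3 by 0.53 ± 0.10.

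Of the cytokine genes tested Il10, which restrains macrophage activation, had the smallest p. It stood at 229.9, 239 and 247 CPM with R837 and 26.6, 23 and 24.8 CPM with Pam3, against 3.03 ± 0.517 CPM (SD, n = 3) in untreated cells. Within each exposure the libraries lay close together, and the difference was 3.27 ± 0.19 (edgeR adjusted p = 1.11e-16). All 12 genes of the interleukin-10 axis, its receptor chains, inducers and effectors, were higher, with a median of 0.90. Zfp36, encoding tristetraprolin, which destabilises cytokine mRNA, stood at 1674, 1780 and 1917 CPM against 697, 712 and 683 CPM (1.36 ± 0.088, edgeR adjusted p = 3.16e-16). Socs3, an inhibitor of cytokine receptors, stood at 2246, 2387 and 2471 CPM against 1451, 1524 and 1393 CPM (0.70 ± 0.10), and Etv3, a repressor, at 441, 458 and 508 CPM against 292, 234 and 254 CPM (0.85 ± 0.12).

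Of 28 cytokine genes tested 11 were higher and 1 lower, with a median of 0.52. Il15, a growth factor of NK and memory T cells, stood at 155, 172 and 243 CPM against 50.5, 27 and 33.4 CPM (2.36 ± 0.25, edgeR adjusted p = 1.21e-09). Il1rn, the antagonist of the interleukin-1 receptor, was the most abundant of the called cytokines, at 5469, 3631 and 3718 CPM against 1561, 1489 and 1488 CPM (1.5 ± 0.23). Il19, of the interleukin-10 family, stood at 22.4, 13.9 and 8.58 CPM against 1.49, 1.76 and 2.31 CPM (3.01 ± 0.50). Il12b, the shared subunit of interleukins 12 and 23, stood at 110.0, 158 and 255 CPM against 60.4, 63.4 and 51.9 CPM (1.57 ± 0.38, edgeR adjusted p = 0.00167). Its partner in interleukin 12, Il12a, was the lower gene, at 0.467, 0.366 and 0.453 CPM against 1.43, 1.72 and 1.86 CPM (-1.95 ± 0.43, edgeR adjusted p = 0.000509), named after its values were seen. The subunits thus differed in opposite directions. The call of Il12b was lost without replicate 3 in both groups and with a replicate block over the 6 libraries alone, with adjusted p up to 0.0951.

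Among the inflammatory cytokines Tnf, Il1b and Il6 the first alone was called. Tnf stood at 1944, 2763 and 3305 CPM with R837 and 1692, 1822 and 1694 CPM with Pam3, without overlap, a difference of 0.62 ± 0.21 (edgeR adjusted p = 0.0283). Its R837 libraries spread more than its Pam3 libraries, and the call was lost when any 1 of the 6 libraries other than R837 replicate 1 was left out (edgeR adjusted p = 0.0553 to 0.208) and under 4 further alternatives, with adjusted p up to 0.324. Il1b stood at 3517, 3236 and 3747 CPM against 2582, 3332 and 2517 CPM (0.32 ± 0.28, edgeR adjusted p = 0.476), and the libraries overlapped. Il6 stood at 69.1, 94.2 and 102 CPM against 56.4, 67.1 and 61.4 CPM (0.52 ± 0.28, edgeR adjusted p = 0.197), without overlap and without a call. Over the 6 libraries alone both were called, as with no filter on low counts. With both ligands these 3 genes were far above the untreated means of 8.29, 1.05 and 0 CPM. Among 13 ligands of the TNF superfamily 4 were higher, including Tnfsf9, a co-stimulator of T cells, at 184, 171 and 211 CPM against 49.2, 49.4 and 46.6 CPM (1.96 ± 0.19, edgeR adjusted p = 8.76e-11), and none lower. Without R837 replicate 3 or Pam3 replicate 3, 2 were higher.

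The receptors for the ligands themselves stood as follows. Tlr7, the receptor of R837, was at 446, 419 and 460.1 CPM with R837 and 258, 239 and 258 CPM with Pam3, against 297 ± 4.29 CPM (SD, n = 3) in untreated cells (0.81 ± 0.16, edgeR adjusted p = 0.000101). Tlr2, the receptor of Pam3, stood at 1547, 1759 and 2007 CPM against 1885, 1599 and 1716 CPM and Tlr1 at 249, 199 and 214 CPM against 187, 212 and 169.9 CPM. In both genes the libraries overlapped and no call was made, and with either ligand both stood well above the untreated means of 67.6 and 19.6 CPM. Tlr6, which pairs with TLR2 for other lipopeptides, differed by 0.49 ± 0.12 (edgeR adjusted p = 0.00167). Of 18 receptors and chaperones 9 were higher and none lower. Tlr3, the receptor of double-stranded RNA, differed most, at 199, 188 and 214 CPM against 21.2, 19.7 and 23.6 CPM (3.22 ± 0.27, edgeR adjusted p = 1.63e-12). Its Pam3 libraries were a little above the untreated 14.2 CPM. Tlr9, the receptor of CpG DNA, differed by 1.51 ± 0.25 and Unc93b1, which carries endosomal receptors to their compartment, by 0.56 ± 0.09.

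Of 17 downstream adaptors and kinases 3 were higher and 3 lower, 17.6% each beside 12.2% and 10.5% over all genes tested. Myd88 stood at 458, 450.1 and 496 CPM against 292, 313 and 278 CPM (0.67 ± 0.088, edgeR adjusted p = 6.69e-08), and Peli1, a ubiquitin ligase of the pathway, differed by 0.88 ± 0.16. Traf3, which is required for interferon induction by endosomal receptors, was lower with R837, at 48.4, 51 and 45.6 CPM against 71.6, 76.2 and 76.7 CPM (-0.63 ± 0.12, edgeR adjusted p = 8.12e-05). Tab1, a partner of the kinase TAK1, was lower too (-0.78 ± 0.18). Of 18 IkB kinases, adaptors and NF-kB subunits 9 were higher (50%) and 2 lower (11.1%). The higher count was 5 without Pam3 replicate 2, and the lower count 1 without R837 replicate 1 or 3. Azi2, an adaptor of TBK1, stood at 304, 259 and 299 CPM against 129.7, 111 and 119.5 CPM (1.26 ± 0.11, edgeR adjusted p = 1.26e-12), and Map3k8, the kinase that leads to ERK, at 244, 254 and 309.5 CPM against 116, 111 and 97.4 CPM (1.31 ± 0.14). Rel differed by 0.65 ± 0.14. The kinases of the interferon branch were higher by small amounts, Ikbke by 0.46 ± 0.11 and Tbk1 by 0.33 ± 0.083.

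Feedback inhibitors of NF-kB were higher or not called, with 8 of 15 higher and none lower. Nfkbiz stood at 1475, 1664 and 1843 CPM against 579, 624 and 553 CPM (1.5 ± 0.11, edgeR adjusted p = 4.22e-14) and Tnfaip3, encoding the ubiquitin editor A20, at 2065, 2019 and 2204 CPM against 908, 929 and 877 CPM (1.21 ± 0.13). Tnip3, an A20-binding protein, differed by 1.09 ± 0.14. Nfkbia, encoding IkB alpha, stood at 1529, 1561 and 1661 CPM against 1198, 1210 and 1108 CPM (0.43 ± 0.078). N4bp1, the gene deleted elsewhere in the series, encodes an RNA-binding restraint on NF-kB that caspase-8 cleaves. In these wild-type libraries it stood at 572, 506 and 532 CPM with R837 and 271, 311 and 281 CPM with Pam3, against 64.7 ± 1.02 CPM (SD, n = 3) in untreated cells (0.90 ± 0.10, edgeR adjusted p = 9.96e-10).

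Of 11 phosphatases of MAP kinases 4 were higher (36.4%) and 2 lower (18.2%), beside 12.2% and 10.5% over all genes tested. Dusp1 stood at 715, 700.0 and 807 CPM against 161, 130.1 and 134 CPM (2.39 ± 0.15, edgeR adjusted p = 3.16e-16) and Dusp2 at 267, 263 and 304 CPM against 103, 79 and 77.7 CPM (1.68 ± 0.20). Dusp5, which acts on ERK in the nucleus, stood at 15.2, 12 and 15.1 CPM against 2.67, 1.48 and 2.6 CPM (2.62 ± 0.22), whereas Dusp3 was lower at 105, 88.9 and 80.8 CPM against 138, 147 and 152 CPM (-0.67 ± 0.083). Of 21 immediate-early transcription factors 12 were higher and 1 lower. The lower one lost its call when any 1 of the 6 libraries other than Pam3 replicate 2 was left out. The higher ones included Egr1 at 1.76 ± 0.28, Ier2 at 1.01 ± 0.18, Ier3 at 1.00 ± 0.12 and Klf6 at 0.88 ± 0.17. Klf6 was the most abundant of the 4, at 1883, 1961 and 2528 CPM against 1366, 1037 and 1062 CPM.

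Genes of cell death and inflammasomes were higher in 18 of 34 cases and lower in 2, with a median of 0.40. Mlkl, the effector of necroptosis, stood at 154, 133 and 134 CPM with R837 and 25.7, 26.1 and 28.7 CPM with Pam3, against 17.2 ± 0.616 CPM (SD, n = 3) in untreated cells (2.38 ± 0.15, edgeR adjusted p = 3.16e-16). Casp8, the protease that triggers apoptosis and blocks necroptosis, stood at 186, 173 and 200.5 CPM with R837 and 63, 67.1 and 62.7 CPM with Pam3 (1.54 ± 0.13, edgeR adjusted p = 6.49e-13). With Pam3 it was a little above the untreated 57.5 ± 0.963 CPM. Casp1 of the inflammasome stood at 676, 546 and 578 CPM against 273, 273 and 266 CPM (1.15 ± 0.12). Ripk3, the kinase upstream of MLKL, and Nlrp3, an inflammasome sensor, were not called, at -0.019 ± 0.14 and 0.15 ± 0.14, and were named after their values were seen.

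Effector enzymes were higher in 12 of 20 cases and lower in none. Nos2, the inducible nitric oxide synthase, stood at 1872, 1677 and 1495 CPM with R837 and 408, 299 and 442 CPM with Pam3 (2.13 ± 0.36, edgeR adjusted p = 1.33e-05), from 0.0411 CPM in untreated cells. Ass1, which regenerates its substrate arginine, stood at 13.1, 14 and 19.8 CPM against 5.73, 5.23 and 5.08 CPM (1.55 ± 0.26). Acod1, which makes itaconate, stood at 4982, 5225 and 6026 CPM against 2824, 2684 and 2798 CPM (0.97 ± 0.21, edgeR adjusted p = 0.000556). Upp1, uridine phosphorylase, differed by 1.74 ± 0.25 and Hdc, which makes histamine, by 1.37 ± 0.24. The prostaglandin synthase Ptgs2 was among the most abundant effectors and was not called, at 2888, 3135 and 3003 CPM against 2346, 2738 and 2601 CPM (edgeR adjusted p = 0.513). It was called over the 6 libraries alone (edgeR adjusted p = 0.0404).

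Genes of antigen presentation were higher or not called. For MHC class I and the immunoproteasome 16 of 19 genes were higher and none lower, with a median of 0.91. H2-T22, a class I molecule, stood at 281, 261 and 301 CPM against 63.8, 55.7 and 54.1 CPM (2.28 ± 0.18, edgeR adjusted p = 1.52e-13), Psmb9, an immunoproteasome subunit, at 107, 88.5 and 109 CPM against 31.1, 26 and 29.1 CPM (1.82 ± 0.15), and the peptide transporter Tap2 at 337, 302 and 308 CPM against 122, 113 and 114 CPM (1.45 ± 0.14). Tapbp, encoding tapasin, differed by 1.03 ± 0.10. The classical genes H2-K1 and H2-D1 were not called, at 0.33 ± 0.16 and 0.29 ± 0.15, and were named after their values were seen. For class II and co-stimulation 6 of 17 were higher and none lower. The called members were co-stimulatory or inhibitory surface molecules, among them Cd83 at 215, 166 and 209.9 CPM against 109.7, 65.4 and 78.1 CPM (1.22 ± 0.17, edgeR adjusted p = 3.1e-07), Cd86 at 1.14 ± 0.21, Slamf7 at 0.95 ± 0.15 and the checkpoint ligand Cd274 at 1807 ± 179 CPM against 897 ± 56.3 CPM (SD, n = 3 each; 1.01 ± 0.16). None of the class II chain genes was called.

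Of 15 genes of lipid handling 4 were higher (26.7%) and 2 lower (13.3%), or 1 lower without R837 replicate 3. Beside Lipg the higher ones included Plin2, which coats lipid droplets, at 955, 897 and 886 CPM against 617, 622 and 605 CPM (0.57 ± 0.093, edgeR adjusted p = 5.09e-06), and the cholesterol exporter Abcg1 at 0.71 ± 0.14. Lpl, lipoprotein lipase, was lower and highly abundant, at 3408, 3863 and 3389 CPM with R837 and 5066, 5845 and 5664 CPM with Pam3 (-0.64 ± 0.082, edgeR adjusted p = 4.18e-08), with R837 around the untreated 3618 CPM. Lipases of the same family, Lipg and Lpl, thus differed in opposite directions. Of 21 genes of cholesterol and fatty acid synthesis 3 were higher (14.3%) and 4 lower (19%), beside 12.2% and 10.5% over all genes tested, with a median of -0.16. Over the 6 libraries alone 5 were higher and 7 lower. Hmgcs1, an early step, differed by 0.57 ± 0.14 (edgeR adjusted p = 0.00184).

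NRF2 regulates the oxidative stress response. Of 16 genes listed for NRF2 and oxidative stress 4 were higher (25%) and 5 lower (31.2%), beside 12.2% and 10.5% over all genes tested. The higher count was 2 without R837 replicate 3, Pam3 replicate 2 or Pam3 replicate 3. Slc7a11, the cystine importer, stood at 149.7, 206 and 158 CPM with R837 and 308, 314 and 373 CPM with Pam3 (-0.95 ± 0.22, edgeR adjusted p = 0.000835). Gclc, the first enzyme of glutathione synthesis, stood at 31.4, 43.7 and 38.4 CPM against 59.4, 62 and 63.2 CPM (-0.70 ± 0.11), and Srxn1, a sulfiredoxin, was lower at -0.48 ± 0.11. Keap1, the inhibitor of NRF2, was higher, at 115, 125 and 122 CPM against 80.9, 85.3 and 78 CPM (0.57 ± 0.091, edgeR adjusted p = 3.13e-06). The genes named are only some of the 4 higher and 5 lower members, and a link between them was not tested.

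Among 18 genes of the unfolded protein and integrated stress response 5 were higher (27.8%) and 3 lower (16.7%). The shares over all genes tested were 12.2% and 10.5%. Without Pam3 replicate 1 the lower count was 1. The chaperone Hspa5 stood at 1385, 1231 and 1295 CPM against 869.5, 824 and 849 CPM (0.62 ± 0.079, edgeR adjusted p = 3.24e-08) and Xbp1, a transcription factor of that response, at 0.67 ± 0.081. The kinase gene Eif2ak3 was lower, at 14.7, 12.7 and 11.6 CPM against 22.9, 25.5 and 26.6 CPM (-0.94 ± 0.17), as was Herpud1 at -0.42 ± 0.11, a call lost without Pam3 replicate 1 (edgeR adjusted p = 0.0624). Of 18 glycolytic genes 5 were higher and 1 lower, 33.3% in all beside 22.7% of genes tested. The lower count was 0 without R837 replicate 3 or Pam3 replicate 2 and 2 without Pam3 replicate 1. Pfkfb3, which makes an activator of glycolysis, stood at 1732, 1268 and 1208 CPM against 627, 585 and 587 CPM (1.23 ± 0.25, edgeR adjusted p = 0.000184). Hk3 differed by 0.60 ± 0.071, Slc2a6 by 0.61 ± 0.14 and Pfkp by 0.26 ± 0.069. None of 23 subunits of complex I of the respiratory chain was called, and their median was -0.014. Of 24 cell cycle and replication genes 2 were higher, the cyclin gene Ccnd1 at 0.96 ± 0.29 and Mcm6 at 0.84 ± 0.15, and 1 lower, Mcm3 at -0.49 ± 0.15. These 3 were 12.5% of the list, beside 22.7% of genes tested. Ccnd1 was not called without R837 replicate 1 (edgeR adjusted p = 0.0676) or Pam3 replicate 1 (0.0515), nor Mcm3 without R837 replicate 3 (0.0758) or Pam3 replicate 3 (0.0597). Mcm3 and Mcm6 encode subunits of the same replicative helicase.

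Of 26 lysosomal genes 8 were higher (30.8%) and 4 lower (15.4%), beside 12.2% and 10.5% over all genes tested. The higher count was 5 without R837 replicate 3 and 3 without Pam3 replicate 2. Npc2, which moves cholesterol out of lysosomes, stood at 2939, 2736 and 3103 CPM against 1855, 1514 and 1612 CPM (0.82 ± 0.11, edgeR adjusted p = 2.66e-07), and the membrane protein Lamp2 differed by 0.48 ± 0.076. Of the 6 subunits of the proton pump on that list 3 were lower and none higher, among them Atp6v0a1 at -0.64 ± 0.10 and Atp6v1b2 at -0.35 ± 0.063. These 6 are part of the pump and were not a preset list, and 10.5% of all genes tested were called lower. Homeostatic and scavenging genes of macrophages were higher in 11 of 25 cases and lower in 1. The higher count was 7 without R837 replicate 1. Fcgr1, the high-affinity receptor of immunoglobulin G, stood at 1911, 1520 and 1712 CPM with R837 and 256, 244 and 229 CPM with Pam3 (2.82 ± 0.17, edgeR adjusted p = 1.17e-16), the latter a little above the untreated 193 CPM. Fcgr4, another activating receptor, stood at 605, 443 and 614 CPM against 115, 85 and 77.9 CPM (2.58 ± 0.24). Mertk, which takes up dying cells, was higher with R837 than with Pam3, at 12.9, 15.4 and 24.1 CPM against 6.06, 4.92 and 5.62 CPM (1.66 ± 0.31), while untreated cells had 78.3 ± 10.8 CPM (SD, n = 3). Cd300a differed by 1.26 ± 0.17.

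Receptors and enzymes of extracellular purines were higher in 6 of 9 cases and lower in none. Adora2b, an adenosine receptor, stood at 157, 128 and 132 CPM against 48.3, 43.1 and 45.9 CPM (1.60 ± 0.16, edgeR adjusted p = 1.53e-10). P2ry14, a receptor of nucleotide sugars, stood at 21.4, 21.8 and 30.5 CPM against 7.13, 2.77 and 4.63 CPM (2.33 ± 0.33), on either side of the untreated 11.6 CPM. Entpd1, which degrades extracellular ATP, differed by 0.96 ± 0.13 and P2rx4 by 0.35 ± 0.10. Of 18 metalloproteinases and protease inhibitors 5 were higher (27.8%) and 1 lower (5.56%), beside 12.2% and 10.5% over all genes tested. The higher count was 1 without R837 replicate 1, 3 without Pam3 replicate 2 and 2 without Pam3 replicate 3. Serpinb9, an inhibitor of granzyme B, differed by 0.78 ± 0.18, and Mmp9, a gelatinase, was lower at 29.2, 30.4 and 30.5 CPM against 38.6, 47.6 and 42 CPM (-0.51 ± 0.19), a call lost when any 1 of the 6 libraries other than Pam3 replicate 1 was left out (edgeR adjusted p = 0.083 to 0.175) and under 5 further alternatives.

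The most abundant called genes differed by small amounts. TMM factors of 0.83 to 0.861 for R837 and 1 to 1.02 for Pam3 raised R837 levels relative to Pam3 levels. Differences of this size therefore depend on the scaling, and fits scaled to library totals alone were not run. Ctsb, a lysosomal protease, headed the higher ones, at 19720, 19460 and 20910 CPM against 17860, 15920 and 16750 CPM (0.25 ± 0.071, edgeR adjusted p = 0.00705). Gpnmb differed by 0.35 ± 0.10, the pore-forming Mpeg1 by 0.44 ± 0.10, the TNF receptor gene Tnfrsf1b by 0.33 ± 0.10 and Ctss by 0.40 ± 0.13. Without Pam3 replicate 2 Ctsb, Gpnmb and Ctss were not called (edgeR adjusted p = 0.0586, 0.0816 and 0.158), nor without R837 replicate 3 Gpnmb (0.058) and Ctss (0.197). Ctss was not called without Pam3 replicate 3 (0.0869), nor Tnfrsf1b without R837 replicate 1 (0.0806) or Pam3 replicate 1 (0.0507). After Lpl, the most abundant lower genes were Spp1, encoding osteopontin, at 3234, 3396 and 3235 CPM against 3981, 3992 and 4126 CPM (-0.29 ± 0.082, edgeR adjusted p = 0.00604), Sirpa, the inhibitory receptor of CD47, at -0.30 ± 0.067, Mtpn at -0.32 ± 0.09 and Anxa5 at -0.22 ± 0.062. The calls of Anxa5, Mtpn and Spp1 held when any 1 library was left out and were lost under 3, 2 and 1 other alternatives.

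Markers showed macrophages in both exposures. The summed level of 14 macrophage markers was 33800 to 36300 CPM with R837 and 29000 to 31700 CPM with Pam3, and 5 of the 14 were higher, Fcgr1 and Mertk among them. Without R837 replicate 3 or Pam3 replicate 2, 3 were higher. Scaled to library totals without TMM, those sums were 29100 to 30200 CPM and 29500 to 32300 CPM and overlapped. The 7 monocyte markers summed to 654 to 944 CPM against 129 to 257 CPM, and 4 were higher. Most of that sum was Ms4a4c, at 532, 459 and 695 CPM against 124, 55.3 and 72.5 CPM. The sum of 13 neutrophil markers was 413 to 479 CPM against 269 to 315 CPM, with 6 of 12 tested higher. That count was 3 without R837 replicate 1 and 2 without Pam3 replicate 3. Dendritic cell markers summed to 490 to 568 CPM against 234 to 358 CPM, nearly all of it Bst2, which is itself interferon-induced. Osteoclast markers were lower in sum, at 140 to 166 CPM against 192 to 214 CPM, with 2 of 7 called lower, or 1 when any library other than Pam3 replicate 1 was left out. Megakaryocyte markers overlapped, from a lowest sum of 273 CPM with R837 to a highest of 315 CPM with Pam3, with none of 6 called. Scaled to library totals they did not overlap, at 227 to 258 CPM against 304 to 320 CPM.

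Stromal and endothelial markers summed to 69 to 93.5 CPM with R837 and 48.5 to 62.7 CPM with Pam3, with 3 of 10 higher and 1 lower, or 1 higher without Pam3 replicate 2. Kdr, a receptor of vascular endothelial growth factor, stood at 30.4, 35.9 and 45.8 CPM against 14.2, 7.18 and 11.1 CPM. B and plasma cell markers were at 278 to 385 CPM against 225 to 335 CPM, with none of 11 called, or 1 higher without R837 replicate 1 or Pam3 replicate 1. Mast cell and basophil markers reached at most 15.5 CPM, with Tpsab1 at 0 in all 6 libraries. T and NK cell markers were at 28.6 to 41.3 CPM against 16 to 25 CPM. Gzma was at 0, and the 3 genes of the CD3 complex did not pass the filter on low counts. Cd8a alone of the T and NK cell markers was called, at 11, 11.2 and 17.1 CPM against 3.38, 2.46 and 2.51 CPM (2.23 ± 0.58, edgeR adjusted p = 0.00308). Erythroid markers were at most 0.193 CPM, with Hba-a2 at 0. The part of these cells in the differences was not tested.

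Other times in wild-type cells share no library with the comparison at 6 h. Each of their groups nevertheless held a high, a middle and a near-zero Y-linked library, as at 6 h. At 4 h these stood at 163.1, 58.2 and 0.0769 CPM of library totals with R837, and at 177.5, 57.3 and 0.0667 with Pam3. Whether the times share mice was not tested, so the overlaps below are not to be read as independent repeats. At 2 h 715 genes were called between the ligands (4.78% of genes tested), at 4 h 3275 (21.9%) and at 8 h 1726 (11.5%). Of the 1829 genes higher with R837 at 6 h, 205 were also higher at 2 h (11.2% of them, and 53.5% of the 383 higher at 2 h, which were 2.56% of genes tested). At 4 h 1163 were (63.6%, and 74.6% of 1558, or 10.4% of genes tested) and at 8 h 826 (45.2%, and 77.1% of 1072, or 7.16% of genes tested). Of the 1567 lower at 6 h, 97 were also lower at 2 h (6.19%, and 29.2% of 332, or 2.22% of genes tested), 825 at 4 h (52.6%, and 48% of 1717, or 11.5% of genes tested) and 421 at 8 h (26.9%, and 64.4% of 654, or 4.37% of genes tested). In the opposite direction, 48 of the higher genes were lower at 2 h and 20 of the lower genes higher. The shared counts at 2 h were 333 higher and 178 lower over the 27 wild-type libraries alone, and 346 higher with no filter, while that at 8 h was 706 lower over the 27. Differences between times were not tested.

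**Figure D4:**
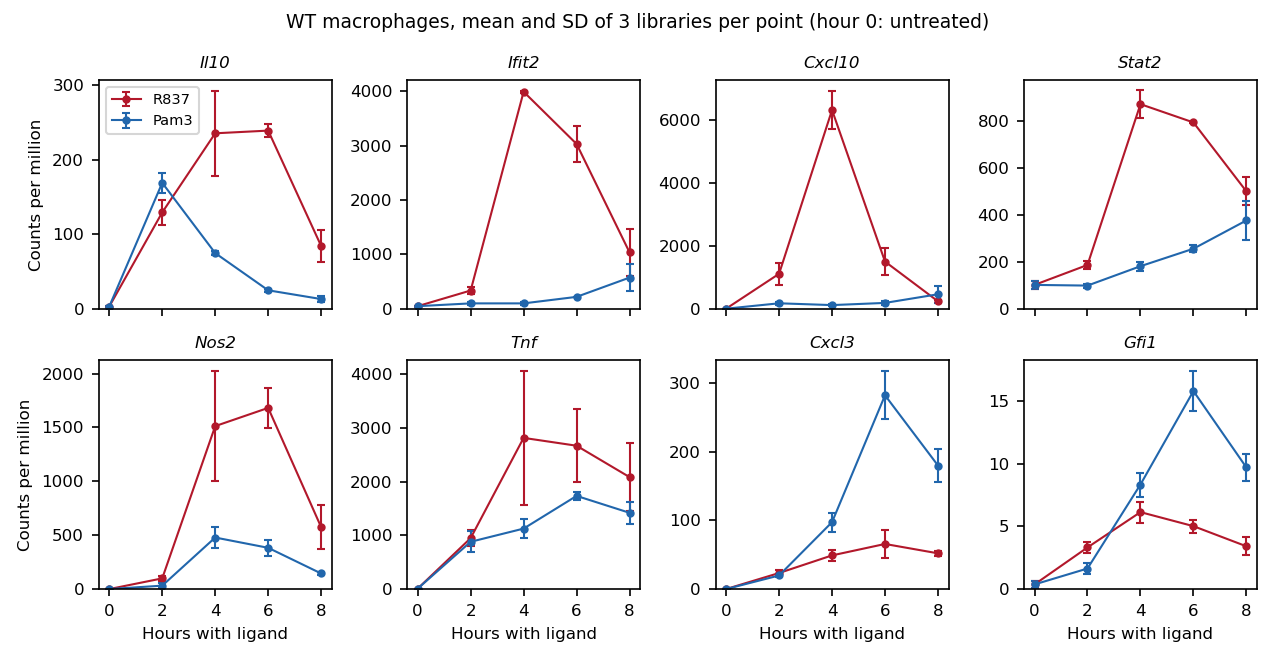
Mean level (CPM) with SD of 3 libraries in wild-type cells against hours with ligand, R837 in red and Pam3 in blue, hour 0 being untreated cells. Il10 with R837 lies above Pam3 at 4, 6 and 8 h, Cxcl10 with R837 is above Pam3 at 6 h and below it at 8 h, and Cxcl3 is lower with R837 from 4 h.

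Among the 15 leading higher genes 4 were called higher at 2 h, 14 at 4 h and 10 at 8 h, with median differences of 1.27, 4.50 and 1.63 beside 3.81 at 6 h, by which they were chosen. Lipg differed by 2.14, 5.01 and 4.2 at 2, 4 and 8 h. Ifit2 differed by 1.76, 5.33 and 0.85, with means at 8 h of 1036 CPM with R837 and 574 CPM with Pam3. Tnfsf10 went from 6.17 at 4 h to 0.14 at 8 h, where it was not called (edgeR adjusted p = 0.89). Cxcl10 had the opposite sign at 8 h, at -0.96, without a call (edgeR adjusted p = 0.144). Il10 showed another course, at -0.39, 1.66 and 2.69, with 84.1 CPM with R837 and 13.1 CPM with Pam3 at 8 h. Among the 15 lower genes 1 was called lower at 2 h, 12 at 4 h and 11 at 8 h, and Cxcl3 differed by 0.24, -0.99 and -1.79. Nos2 differed by 1.64, 1.66 and 1.99, and Tnf by 0.11, 1.32 and 0.55.

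The same comparison in N4bp1 KO macrophages used 6 other libraries. No source used here says how N4bp1 was deleted. N4bp1 itself stood at 195 ± 15.7 CPM with R837 and 140.3 ± 13.1 CPM with Pam3 in KO cells (SD, n = 3 each), below 537 ± 33 CPM and 288 ± 20.8 CPM in wild-type cells. Counts over the whole gene do not show which of its exons were removed. In KO cells 1815 genes were called between ligands (12.1% of genes tested), 1108 higher with R837 (7.4%) and 707 lower (4.72%). Both genotypes called 813 genes higher, 44.5% of those of wild-type and 73.4% of those of KO cells. They called 399 lower, 25.5% and 56.4%, or 164 over the libraries of each comparison alone and 200 there with a replicate block. The KO count fell to 1080 without KO Pam3 replicate 3, a library with counts in 16097 genes against 16538 and 17092 in the other Pam3 KO libraries. The genotypes differed in further ways. KO libraries held no Y-linked counts, and Igha, an antibody chain of plasma cells, stood at 34.5 to 65.5 CPM of library totals in them and at 0.597 to 13.2 in the wild-type libraries at 6 h. The part of these differences in the values below was not tested.

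**Figure D5:**
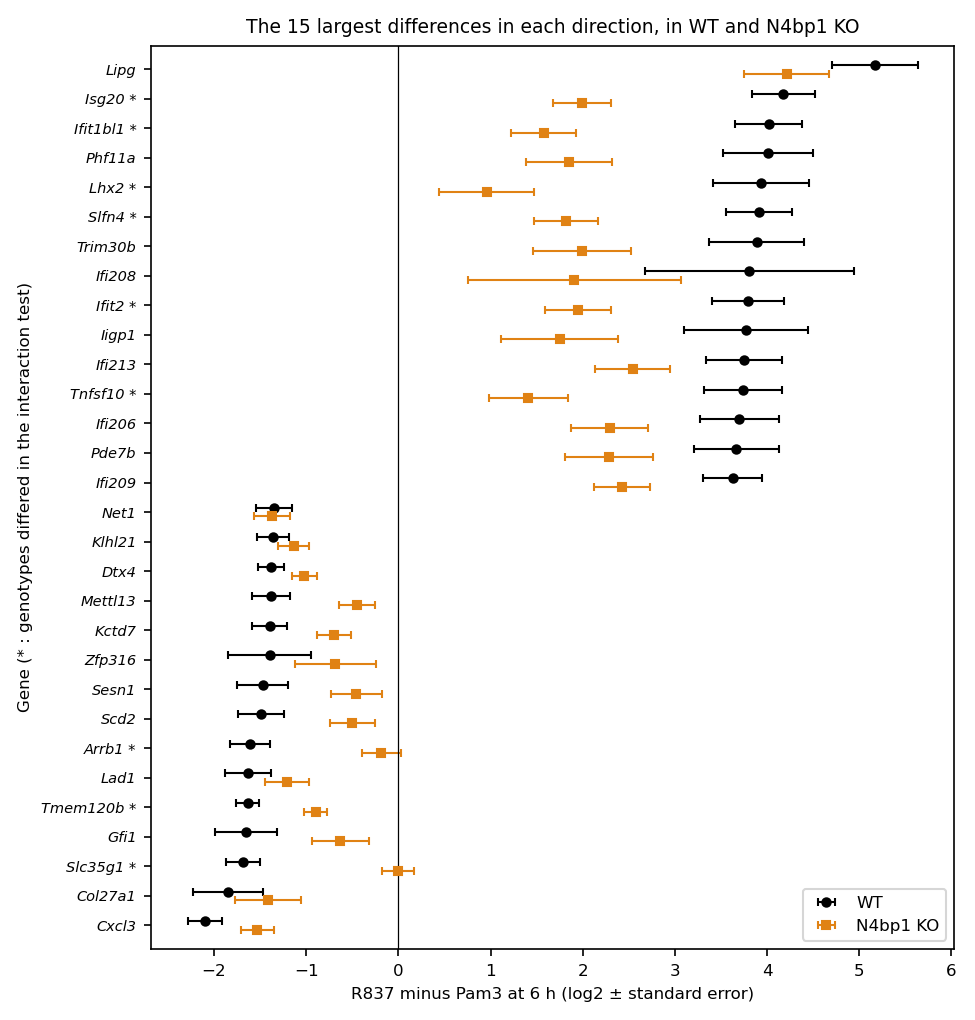
Log2 difference at 6 h, R837 minus Pam3, with SE, in wild-type (black circles) and N4bp1 KO cells (orange squares) for the 15 largest differences in each direction. Asterisks mark the 9 genes whose ligand difference differed between genotypes in the interaction test, with Lhx2 at 3.94 in wild-type cells.

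Whether the ligand difference itself differed between genotypes was tested as an interaction in the same model. It was called in 395 genes (2.64%), and the KO difference was above the wild-type one in 90 (0.601%) and below it in 305 (2.04%). Of the 15 higher genes 12 were called in KO cells, with a median of 1.95 against 3.81 in wild-type cells, and 6 had an interaction, all below 0. Those 15 were chosen for their size in wild-type cells, which by itself makes the KO values tend to be smaller, so the medians are a description only. Isg20 stood at 31.8 ± 5.25 CPM with R837 and 7.96 ± 1.67 CPM with Pam3 in KO cells (SD, n = 3 each), against 115 ± 16.2 CPM and 6.34 ± 1.54 CPM in wild-type cells. The ligand difference was 1.99 ± 0.32 in KO cells and the interaction -2.18 ± 0.44 (edgeR adjusted p = 0.00224). Ifit1bl1 stood at 19.8 ± 1.87 CPM and 6.64 ± 0.64 CPM in KO cells, against 254 ± 58.4 CPM and 15.7 ± 1.86 CPM in wild-type cells. Lipg differed by 4.21 ± 0.46 in KO cells, and its interaction was not called (-0.96 ± 0.59, edgeR adjusted p = 0.503). Of the 15 lower genes 8 were called in KO cells, and 3 had an interaction above 0. Slc35g1 stood at 12.3 ± 1.04 CPM and 12.4 ± 2.37 CPM in KO cells, with no ligand difference called, against 4.58 ± 0.384 CPM and 14.7 ± 2.01 CPM in wild-type cells (interaction 1.68 ± 0.25, edgeR adjusted p = 4.38e-05).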

How the data were processed

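Counts per gene for 52636 mouse Ensembl genes in 54 libraries were used as deposited. Reads were aligned with GSNAP to GRCm38, per the submitters' processing notes, and per the labels' protocols RNA was made into TruSeq libraries and read as single ends on a HiSeq instrument. The counting tool, its strand setting and all versions were stated in no source read. The authors' RPKM columns were deposited beside the counts and were not used. Symbols came from GENCODE M21 and matched 52489 identifiers.

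Genes were kept by filterByExpr (minimum count 10, total 15; 14970 genes), scaled by TMM and fitted over all 54 libraries with the robust quasi-likelihood model of edgeR 4.0.16 in R 4.3.3, with calls at an adjusted p of 0.05. TMM factors were 0.83 to 0.861 for R837 and 1 to 1.02 for Pam3 at 6 h. The script was tested on simulated counts. Library totals over the series were 20.03 to 45.9 M. Alternatives used DESeq2 1.42.0, limma 3.58.1 voom, other filters and scaling, fewer libraries and a replicate block. Named genes were the 15 largest differences each way (called, at least 5 CPM, no overlap, placeholder symbols skipped) and up to 4 per list by p. Those from lists also had to be called, reach 5 CPM and show no overlap. A preset list and the 5 most abundant called each way were added. These rules, the 43 gene lists and the comparison itself were chosen with earlier results of these data known. A few named genes are not reported here.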

Additional observations from a re-analysis of the deposited data

Results flagged for a closer look

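In 9 of the 30 genes with the largest wild-type differences, the ligand difference at 6 h differed between N4bp1 KO and wild-type macrophages in edgeR's interaction test over all genes. For higher genes, the KO minus wild-type value on the log2 scale was -2.18 for Isg20 (adjusted p = 0.00224), -2.44 for Ifit1bl1 (0.00216), -2.98 for Lhx2 (0.0134), -2.10 for Slfn4 (0.00777), -1.84 for Ifit2 (0.0331) and -2.32 for Tnfsf10 (0.018). For lower genes it was 1.68 for Slc35g1 (4.38e-05), 0.74 for Tmem120b (0.00973) and 1.42 for Arrb1 (0.00381), so in all 9 the KO difference was the smaller in size. The genes were chosen for their size in wild-type cells, and the wild-type value enters the interaction. Under at least 1 alternative 5 of the 9 lost the call: Ifit2 with adjusted p up to 0.16, Lhx2 up to 0.095, Slfn4 up to 0.052, Tmem120b up to 0.081 and Tnfsf10 up to 0.1. Leaving out 1 library removed the call of Ifit2 in 9 of 12 cases, of Tnfsf10 without wild-type R837 replicate 3, KO R837 replicate 1 or KO Pam3 replicate 2, of Lhx2 without KO Pam3 replicate 3 and of Tmem120b without wild-type R837 replicate 1. Of the 21 genes not called, 14 gained a call under at least 1 alternative, 13 of them with no filter on low counts. Genotype also went with Y-linked counts and with Igha, whose part was not tested.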

How the results depend on the processing

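Over the 19 alternatives run for the wild-type comparison no called named gene changed sign, while the uncalled Ifnb1 and Tlr2 did, 139 of the 170 called named genes kept their call under each, and 31 lost it under at least 1, among them Tnf, Ctss, Mmp9, Ifi208 and Serpina3g. With no filter, Il1b (adjusted p = 0.018) and Il6 (7.8e-05) gained a call, as did these 2 and Ptgs2 (0.04) over the 6 libraries alone and Il6 there with a replicate block. Of 94 list counts 42 moved by over 1.5 times under at least 1 alternative. The wild-type count of 3396 was 2687 to 3062 without any 1 library, 3078 without a filter and 4401 over the 27 wild-type libraries alone. It was 2242 to 2527 without 1 replicate number in both groups, lowest without number 3. The lower count of 1567 was 938 without number 2, 893 without number 3 and 993 without the 2 middle Y-linked libraries, an alternative chosen after seeing the data. Calls higher were 53.9% of calls, 58.2% with relative log expression size factors and 50.4% over the 27 wild-type libraries.

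Replicate numbers did not pair the wild-type libraries: the same-number correlations of deviations were -0.184, 0.0834 and -0.0934, and of the R837 libraries replicate 2 alone correlated best with the Pam3 library of its own number. Libraries of like Y-linked level in the 2 groups (R837 1 with Pam3 2, 2 with 3 and 3 with 1) correlated at 0.144, 0.0586 and 0.288. Igha ran the same way, at 0.903, 3.24 and 12.5 CPM of library totals in R837 1, 2 and 3 and 0.597, 3.64 and 13.2 CPM in Pam3 2, 3 and 1. The labels do not pair them, so no block was fitted on those pairs, and the counts take the libraries as unpaired. Same-number libraries differed in Y-linked level. The replicate blocks, and the fits without 1 replicate number in both groups, therefore joined unlike libraries. With a replicate block 3546 genes were called, 1900.0 higher and 1646 lower, and over the 6 libraries alone 3550.0, 1919 and 1631.

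The KO count of 1815 was 840.0 over its 6 libraries alone (614 higher, 226 lower), 1014 there with a replicate block (731 higher, 283 lower), and 1080.0 to 2179 without 1 library (701 to 1289 higher, 379 to 890.0 lower), lowest without Pam3 replicate 3. It was 1179 without R837 replicate 3. The interaction count of 395 was 648 with no filter (186 above 0, 462 below), 607 with DESeq2 (145 and 462) and 247 without the middle Y-linked libraries (47 and 200). Without 1 library it was 255 to 496 (36 to 161 above 0, 203 to 335 below). Without replicate numbers 2 and 3 in both groups it was 240.0 (38 and 202) and 165 (28 and 137), and without number 1 those above 0 were 59. Over the 12 libraries alone 51 were above 0, and 41 with a replicate block. The cause of these moves was not tested, except that fewer libraries entered the fits that leave some out.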

Other observations

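Gene groups that share a symbol prefix were looked at after their values were seen, and get no test. Of 40 tested genes with the prefixes Rrp, Utp, Nop, Nol or Polr1, most of which act in ribosome biogenesis, 22 were called lower with R837 at 6 h and 2 higher, with a median log2 difference of -0.39 against -0.022 over all genes, where 10.5% were called lower. All 7 Schlafen genes were called higher (median 1.91), as were all 11 of the Ifi200 cluster (2.91), all 4 Phf11 genes (3.34) and all 4 Trim30 genes (2.76), where 12.2% of all genes were. The last 4 groups are families of related genes, so their members are not independent of each other. In the Ifi200 cluster the annotated span of Mndal also holds that of Ifi211 and most of that of Ifi203, on the same strand.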
